A study of Mus musculus with 30 samples.

Results

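Microglia of wild-type mice on day 35 after the induction of EAE, experimental autoimmune encephalomyelitis (day 35 WT, 4 libraries), were compared with those of wild-type mice without it (naive WT, 4 libraries). The 8 libraries were chosen by their titles from the 30 RNA-seq libraries of the series, which also hold day 21, Atg7 knockout (KO) and old groups. EAE is an autoimmune model of multiple sclerosis in which T cells primed against a myelin antigen enter the central nervous system. Mice of both groups were young C57BL/6 animals of the genotype Atg7wt/wt Cx3cr1CreERT2. By this genotype both carried the same tamoxifen-inducible Cre, which is driven from the Cx3cr1 locus, and neither had an Atg7 allele that Cre can delete. For day 35 WT 3 the labels conflict on the knockout, as given below. Per the labels' protocol, tamoxifen was given as 3 doses of 4 mg at intervals of 48 h, at least 18 days before EAE. Day 35 WT mice then received recombinant mouse myelin oligodendrocyte glycoprotein (residues 1 to 125) and pertussis toxin. Microglia from the dissociated central nervous system were sorted as live cells that were CD11b+, CD45 intermediate and Ly6G-, and/or eYFP+. Female and male cells were pooled 1:1, and total RNA was amplified with a stranded low-input kit. The labels do not say that the libraries of a group came from separate animals or sorts, so every p-value measures only the spread between these samples, which may be technical.

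Microglia are the resident macrophages of the brain and spinal cord. Interferons signal through STAT proteins and factors of the IRF family, which switch on antiviral genes, GTPases of the GBP and IRG families, and the genes of antigen presentation. Type I interferons are made by many cells and interferon-gamma mainly by T and NK cells, and their target genes overlap. MHC class I displays peptides to CD8 T cells and MHC class II to CD4 T cells. Microglia in disease are also known to lower a set of homeostatic genes and to raise a set called disease-associated, which includes Apoe, Spp1 and Itgax.

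Total counts ran from 6286950 to 6790051 in day 35 WT libraries and from 4712803 to 6764835 in naive WT libraries, and levels are given as CPM, the counts of a gene scaled to a common library size by TMM factors. The clinical score recorded for each library, on a scale not given in the sources used here, was 1.5, 1, 1.5 and 1 in day 35 WT and 0 in all 4 naive WT libraries. On the first principal component of the 8 libraries, which held 53.7% of the variance, day 35 WT libraries lay between 42.28 and 52.98 and naive WT libraries between -61.31 and -17.86. Microglia markers were abundant in every library: Tmem119, a surface protein of microglia, was at 1205, 1094, 2118 and 1816 CPM in day 35 WT libraries and at 1870, 1858, 1493 and 1946 CPM in naive WT libraries. The 6 microglia markers summed to 9517, 9160, 13968 and 12771 CPM in day 35 WT and to 16457, 15853, 11586 and 15416 CPM in naive WT. Ranges of the groups overlapped for both.

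Naive WT 3 stood apart from the other naive libraries. In 26 of 282 tests of a gene or a library measure within a group, 1 library lay far from the other 3, and in 14 of these it was naive WT 3. Day 35 WT 3 has a conflict in its labels: its title and the deposited sample table give WT, while its knockout status gives KO. Its Atg7 level, 23.8 CPM, lay among the other day 35 WT libraries (23.7, 21.3 and 21.4 CPM). This level cannot settle the conflict, because Atg7 counted over the whole gene was not lower in day 35 KO than in day 35 WT. Its level of Xist, the RNA of the inactive X chromosome, was 59.0 CPM, against 971 to 1827 CPM in the other 3 day 35 WT libraries and 627 to 1138 CPM in naive WT, although female and male cells were said to be pooled equally. Low Xist levels also occurred in other groups of the series. They were 92.2 CPM in naive KO 1, 70.1 CPM in day 21 KO 2, 83.6 CPM in day 21 KO 4 and 167.8 CPM in naive old 4. Many results that rest on naive WT 3 or day 35 WT 3 are given with and without it, but not all.

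Of 13880 genes tested, 1166 (8.40%) were higher and 1479 (10.7%) were lower in day 35 WT than in naive WT, by edgeR's quasi-likelihood F test at a Benjamini-Hochberg adjusted p under 0.05. Genes that pass this threshold are called higher or lower here. The shares over all genes, 8.40% and 10.7%, are the background for the counts of called list members below. With upper-quartile scaling in place of TMM the balance of directions turned, with 1499 higher and 1182 lower, and the median log2 fold change of all genes moved to 0.05, against -0.01 with TMM, so that the share of higher calls was 55.9%, against 44.1%. Libraries of the groups did not overlap for 2868 genes (20.7%). Without day 35 WT 1 the total was 1406 (590 higher, 816 lower), without naive WT 2 it was 1617 (752 and 865) and without day 35 WT 2 it was 1667 (736 and 931). The total was 2857 (1323 and 1534) without day 35 WT 3 and 2344 (1145 and 1199) without naive WT 3. The largest rises were in immune genes. Of the 12 called genes with the highest fold changes among those with at least 5 CPM in the higher group and no overlap between the groups, Iigp1, Gbp8, Tgtp2 and Gbp4 encode interferon-induced GTPases, H2-Q6, H2-Q7 and Nlrc5 belong to the MHC class I system, and Cxcl9 and Cxcl13 encode chemokines. The other 3 were C4b, Adora1, which encodes the adenosine A1 receptor, and Spon1, which encodes an extracellular matrix protein. The 12 lowest by the same conditions were Epx, Prg2, Elane, Ear6, Trem3, Mapk13, Bmx, Il1f9, Camp, Slco4c1, S100a8 and Retnlg, among which are granule protein genes of eosinophils and neutrophils.

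**Figure D1:**
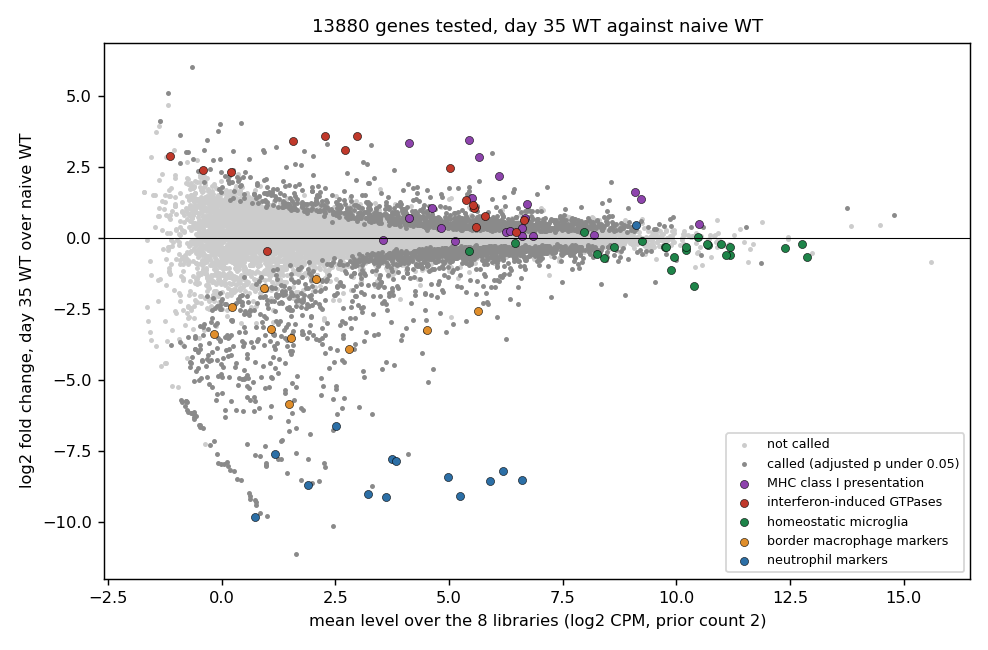
Each point is 1 of the 13880 genes tested. The horizontal axis gives the mean level over the 8 libraries (log2 CPM) and the vertical axis the log2 fold change of day 35 WT over naive WT, with called genes in dark grey and 5 gene lists in color. Interferon-induced GTPases and MHC class I genes lie mostly above 0 and reach past 3 log2 units, homeostatic genes lie close to 0 at high levels, and all neutrophil markers but Csf3r lie far below 0. The curved lower edge is formed by genes with few or no counts at day 35, whose plotted fold change depends on the prior count.

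Most interferon-induced GTPase genes rose. They encode dynamin-like proteins that act on the membranes of intracellular pathogens and their vacuoles. Of 16 tested, 12 were called higher and none lower at day 35, with a list median log2 fold change of 1.83, and 10 of the 12 stayed called when each of the 8 libraries was left out in turn. Gbp6 and Gbp2b were the exceptions: without day 35 WT 1 they were 2.08 and 2.62 (adjusted p = 0.0778 and 0.0531), and without naive WT 1 or naive WT 2 both also missed the threshold (2.16 and 2.28, and 2.08 and 2.16). Gbp6 further lost its call without naive WT 4 (1.88), and Gbp2b without day 35 WT 2 (2.07), day 35 WT 3 (2.41), day 35 WT 4 (2.48) or naive WT 3 (1.99). Gbp2 (guanylate-binding protein 2, chr3:142620602-142638008 on GRCm38) was at 99.8, 94.6, 62.9 and 49.6 CPM in day 35 WT libraries and at 10.4, 15.2, 18.7 and 12.1 CPM in naive WT libraries. The lowest day 35 library was above the highest naive library. Its log2 fold change was 2.45 (SE 0.30, adjusted p = 1.46e-05). Iigp1, the IRG family member also called IRGA6, was at 41.2, 35.6, 20.4 and 18 CPM in day 35 WT, against 1.18, 2.11, 5.08 and 1.14 CPM in naive WT, and rose by 3.59 (SE 0.41, adjusted p = 8.05e-06). For both genes, and for Gbp4 and Gbp8, day 35 WT 1 and 2 were higher than day 35 WT 3 and 4. Tgtp2, another IRG gene with a near-identical neighbor, Tgtp1, between which reads may be split, was at 14, 7.61, 9.71 and 6.35 CPM in day 35 WT and at 0.882, 0.235, 1.94 and 0.285 CPM in naive WT (log2 fold change 3.40, SE 0.43, adjusted p = 1.42e-05). Gbp3 rose less, by 1.04, at 66.3 ± 7.52 CPM in day 35 WT and 32.4 ± 4.12 CPM in naive WT (SD, n = 4 each, adjusted p = 1.51e-06). Irgm2, Igtp and Ifi47 had log2 fold changes of 0.19, 0.40 and -0.47 and did not pass.

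Of 34 tested genes of the type I interferon response, 20 were called higher and none lower, with a median of 0.75, and 17 of the 20 stayed called without each library in turn. Stat2, which carries the signal of type I interferons to the nucleus, rose by 1.11, at 111 ± 23.5 CPM in day 35 WT and 51.5 ± 10.8 CPM in naive WT (SD, n = 4 each, adjusted p = 1.72e-05). Mx1, an antiviral GTPase, was at 57.6, 46.4, 32.9 and 29.3 CPM in day 35 WT and at 11.5, 12.2, 16.3 and 11.8 CPM in naive WT, and rose by 1.68 (adjusted p = 1.15e-05). Ifit2 and Ifit3, which bind viral RNA or its partners, rose by 1.76 and 1.44, and Zbp1, a sensor of nucleic acids in the Z form, rose by 1.74. Irf1, an IRF factor that interferon-gamma induces strongly, was at 155.7, 144.4, 137 and 127.6 CPM in day 35 WT and at 72.3, 69, 80.8 and 67.6 CPM in naive WT, and rose by 0.96 (SE 0.11, adjusted p = 2.54e-06). Several common markers of the type I response did not pass. Isg15, a ubiquitin-like modifier, was at 4.29, 7.91, 10.6 and 4.62 CPM in day 35 WT and at 3.53, 2.58, 5.83 and 3.85 CPM in naive WT (log2 fold change 0.77, adjusted p = 0.0641). Ifit1 and Rsad2 had log2 fold changes of 0.84 and 0.57. Isg15 passed without naive WT 3 (1.02, adjusted p = 0.0278).

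Of 21 tested genes of MHC class I presentation, 14 were called higher and none lower, with a median of 0.70, and 11 of the 14 stayed called without each library in turn. H2-K1, a classical class I heavy chain (chr17:33996017-34000347), was at 1021, 852, 1025 and 952 CPM in day 35 WT and at 274, 266, 438 and 268 CPM in naive WT. The highest naive library, naive WT 3, was still below every day 35 library. Its log2 fold change was 1.63 (SE 0.18, adjusted p = 1.47e-06). The other classical heavy chain of this strain, H2-D1, was at 985 ± 131.7 CPM in day 35 WT and 379 ± 130 CPM in naive WT (SD, n = 4 each), a log2 fold change of 1.38 (adjusted p = 6.18e-05). H2-Q4, a nonclassical heavy chain (chr17:35379617-35385290), had the lowest adjusted p of the genes named here, 3.92e-07: it was at 204.2, 156.2, 124.8 and 117 CPM in day 35 WT and at 28.1, 25.1, 53.2 and 26.4 CPM in naive WT, a log2 fold change of 2.18 (SE 0.20). H2-Q6 and H2-Q7, neighbors of H2-Q4 that share much of its sequence so that reads may be split among them, rose by 3.46 and 3.33. H2-M3, which presents bacterial formyl peptides, rose by 1.41, at 63.8, 75.6, 79.5 and 79.2 CPM in day 35 WT and at 23.4, 25.1, 34.8 and 28.8 CPM in naive WT (adjusted p = 1.11e-06). Nlrc5, the transactivator of class I genes, was at 223, 159, 129.6 and 109.8 CPM in day 35 WT and at 13.7, 8.44, 48.3 and 13.8 CPM in naive WT, and rose by 2.86 (SE 0.40, adjusted p = 9.19e-05). The peptide transporter subunit Tap1 rose by 1.20, at 177.2, 149, 164.2 and 149 CPM in day 35 WT and at 56.3, 61.9, 91.8 and 68.9 CPM in naive WT (adjusted p = 3.59e-06). The light chain B2m was at 1473, 1500, 2122 and 1838 CPM in day 35 WT and at 1106, 1355, 1254 and 1196 CPM in naive WT, with no overlap (0.50, adjusted p = 0.0373). Its call was lost without naive WT 1 (0.45), naive WT 3 (0.51), naive WT 4 (0.48), day 35 WT 3 (0.39) or day 35 WT 4 (0.50), at adjusted p between 0.0576 and 0.119. The immunoproteasome subunit Psmb9 rose by 1.05, while Psmb8, Psmb10, Psme1 and Psme2 had log2 fold changes of 0.22, -0.10, 0.06 and -0.06 and did not pass.

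**Figure D2:**
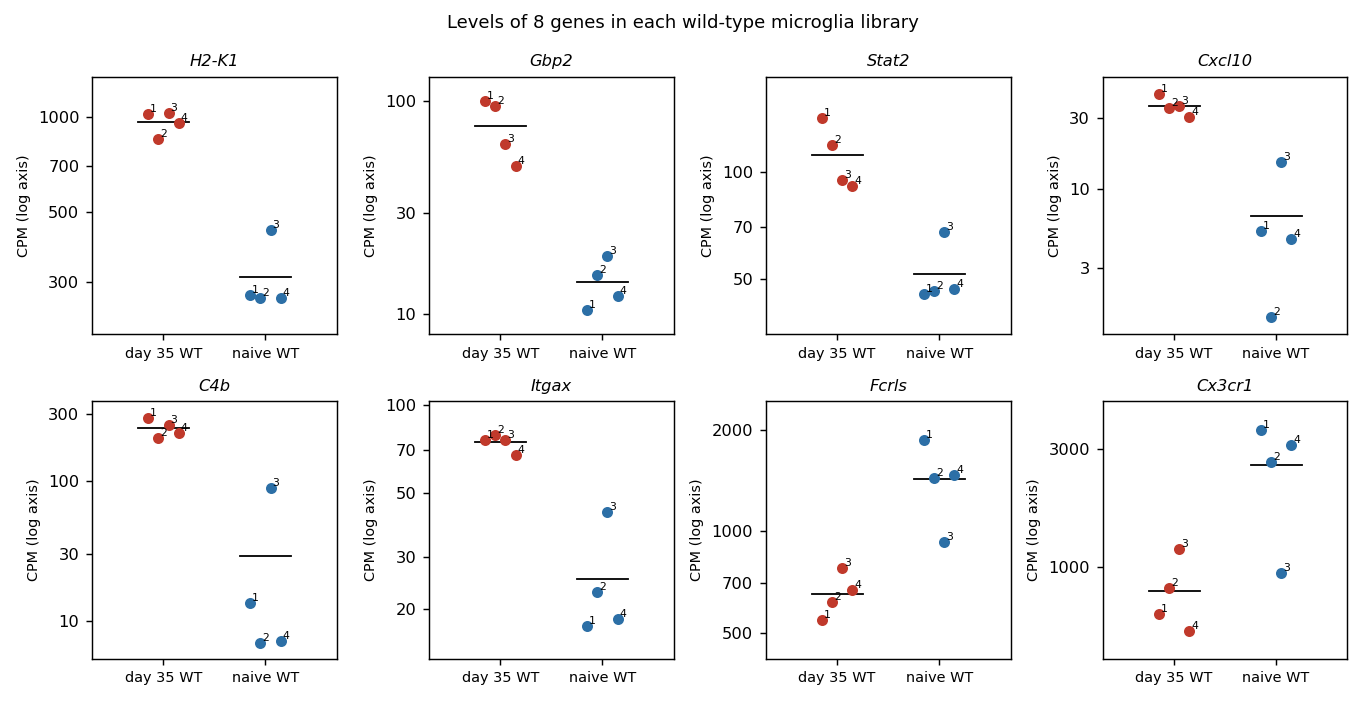
Levels of 8 genes in each library (CPM, log axis), day 35 WT in red and naive WT in blue, numbered by library, with the group mean as a line. H2-K1, Gbp2, Stat2, Cxcl10, C4b and Itgax are higher in each day 35 library than in each naive library, Fcrls is lower in each, and for Cx3cr1 naive WT 3 (948 CPM) lies below day 35 WT 3 (1190 CPM).

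The promoters of 5 of these genes are printed because their genes rose and the windows show the letters on which interferon-regulated factors are known to act. Each window holds 250 bases before and 50 after the start of the gene, from RefSeq on GRCm38.p6, 5′ to 3′ on the gene's strand. H2-K1 is at chr17:34000298-34000597 (minus strand), H2-Q4 at chr17:35379367-35379666 (plus strand), Tgtp2 at chr11:49064163-49064462 (minus strand), Gbp2 at chr3:142620413-142620712 (plus strand) and Cxcl10 at chr5:92348840-92349139 (minus strand). Capitals mark matches on either strand to the IRF core AANNGAAA and to the GAS core TTCNNNGAA, the letters bound by STAT dimers.
H2-K1: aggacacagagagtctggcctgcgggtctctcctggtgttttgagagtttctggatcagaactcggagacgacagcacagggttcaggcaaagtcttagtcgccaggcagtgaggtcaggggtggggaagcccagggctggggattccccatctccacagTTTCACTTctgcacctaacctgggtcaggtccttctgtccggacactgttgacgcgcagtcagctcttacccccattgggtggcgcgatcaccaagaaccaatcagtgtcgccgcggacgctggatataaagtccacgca
H2-Q4: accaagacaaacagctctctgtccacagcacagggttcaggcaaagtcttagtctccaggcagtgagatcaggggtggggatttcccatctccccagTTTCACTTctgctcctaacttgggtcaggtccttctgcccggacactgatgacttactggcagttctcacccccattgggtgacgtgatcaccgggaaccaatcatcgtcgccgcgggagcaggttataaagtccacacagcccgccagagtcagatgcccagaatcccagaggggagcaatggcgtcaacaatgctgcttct
Tgtp2: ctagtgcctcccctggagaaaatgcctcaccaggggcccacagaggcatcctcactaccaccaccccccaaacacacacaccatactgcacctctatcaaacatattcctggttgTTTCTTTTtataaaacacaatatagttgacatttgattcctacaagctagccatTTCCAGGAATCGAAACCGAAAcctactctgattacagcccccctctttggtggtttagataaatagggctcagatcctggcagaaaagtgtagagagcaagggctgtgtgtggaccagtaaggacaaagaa
Gbp2: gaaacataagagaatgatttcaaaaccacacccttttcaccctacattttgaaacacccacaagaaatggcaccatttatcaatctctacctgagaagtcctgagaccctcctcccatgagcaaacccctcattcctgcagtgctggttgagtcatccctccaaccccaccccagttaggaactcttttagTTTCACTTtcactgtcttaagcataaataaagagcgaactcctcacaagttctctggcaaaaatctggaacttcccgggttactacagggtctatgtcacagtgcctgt
Cxcl10: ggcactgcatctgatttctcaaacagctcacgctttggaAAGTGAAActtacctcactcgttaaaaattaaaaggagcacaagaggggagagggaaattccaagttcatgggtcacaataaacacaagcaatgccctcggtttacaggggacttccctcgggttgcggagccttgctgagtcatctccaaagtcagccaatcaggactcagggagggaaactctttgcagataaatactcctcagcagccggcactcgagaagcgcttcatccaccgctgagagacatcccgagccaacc
H2-K1, H2-Q4, Gbp2 and Cxcl10 held 1 IRF core and no GAS core each. Tgtp2 held 3 IRF cores and 1 GAS core, and its long run of capitals is a GAS core that overlaps IRF cores. The IRF core was in 24.2% of 27025 promoters of the same length and in 18.3% of 9916 promoters of tested genes, and the GAS core in 8.47% and 6.94%. Among genes called higher, 20.8% of 849 promoters held an IRF core, and among genes called lower 16.9% of 1126. The IRF core was in 11 of the 11 promoters found for the GTPase list, in 17 of 23 (73.9%) of the type I interferon list and in 11 of 17 (64.7%) of the MHC class I list. It was in 3 of 9 promoters of the MHC class II list, in 4 of 17 (23.5%) of the homeostatic list and in 2 of 13 (15.4%) of the neutrophil markers. A GAS core was in 6 of the 11 GTPase promoters. These are matches of letters and no binding was measured.

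Of 12 tested genes of MHC class II presentation, 6 were called higher and none lower, with a median of 0.46. Cd74, the invariant chain that guides class II molecules, was at 1063, 831, 677 and 529 CPM in day 35 WT and at 198, 152.5, 273 and 158.4 CPM in naive WT, and rose by 1.99 (SE 0.47, adjusted p = 0.00588). H2-Ab1, a class II beta chain, was at 370, 291, 251 and 179 CPM in day 35 WT and at 79.1, 71.8, 106 and 59.3 CPM in naive WT, and rose by 1.79 (SE 0.46, adjusted p = 0.00938). The groups did not overlap for either gene, and both stayed called without each library in turn. H2-Aa, its alpha partner, rose by 1.71 and H2-Eb1 by 1.61, but their calls were not kept in every leave-out: without day 35 WT 1, for example, the values were 1.47 (adjusted p = 0.0738) and 1.45 (adjusted p = 0.0654). H2-Aa also missed the threshold without naive WT 2 (1.69) or naive WT 4 (1.60), and H2-Eb1 without day 35 WT 2 (1.44), naive WT 2 (1.60) or naive WT 4 (1.53). Ciita, the class II transactivator, was at 31.2, 24, 14.6 and 8.95 CPM in day 35 WT and at 5, 2.81, 8.52 and 3.85 CPM in naive WT (1.93, adjusted p = 0.0205). It lost its call without day 35 WT 1 (1.61), day 35 WT 2 (1.82), naive WT 2 (1.81) or naive WT 4 (1.80). The number of class II genes called fell to 3 without day 35 WT 1, day 35 WT 2 or naive WT 4.

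Of 14 costimulatory and checkpoint genes 4 were called higher and none lower (median 0.07). Cd274, which encodes PD-L1, the ligand that restrains T cells, was at 52.9, 56.9, 44.8 and 41.6 CPM in day 35 WT and at 12.5, 13.4, 29.2 and 15.8 CPM in naive WT, and rose by 1.46 (SE 0.27, adjusted p = 0.000998). Icosl, a ligand of the T cell receptor ICOS, rose by 0.45 (adjusted p = 0.00676), at 197 ± 18.3 CPM in day 35 WT and 143 ± 6.77 CPM in naive WT (SD, n = 4 each). The classical costimulatory ligands Cd86 and Cd80 had log2 fold changes of 0.05 and -0.32, at adjusted p of 0.837 and 0.179. Cd40 and Cd83 rose by 2.04 and 0.47, and without day 35 WT 1 their values were 1.59 (adjusted p = 0.0879) and 0.36 (adjusted p = 0.108). Cd40 missed the threshold also without naive WT 4 (1.79), and Cd83 without naive WT 2 (0.47) or naive WT 4 (0.43).

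Of 16 chemokine genes tested, 8 were called higher and 2 lower, with a median of 1.14, and 7 of the 10 stayed called without each library in turn. The lower count was 1 without naive WT 1, naive WT 2, naive WT 4, day 35 WT 3 or day 35 WT 4. Cxcl10, an interferon-induced ligand of CXCR3 on T cells (chr5:92346638-92348889), was at 43, 35, 36.2 and 30.2 CPM in day 35 WT and at 5.29, 1.41, 15.3 and 4.7 CPM in naive WT. The groups did not overlap, and it rose by 2.38 (SE 0.35, adjusted p = 0.000132). Cxcl9, another CXCR3 ligand, was at 25, 35.1, 10 and 10.7 CPM in day 35 WT and at 0.588, 1.17, 5.98 and 0.143 CPM in naive WT (3.32, SE 0.66, adjusted p = 0.00198). Cxcl13, which attracts B cells, was at 5.29, 4.41, 8.92 and 11.7 CPM in day 35 WT and at 0.294, 0.235, 2.54 and 0 CPM in naive WT (3.21, adjusted p = 0.0103). Ccl12 and Ccl2, ligands of CCR2 on monocytes, rose by 1.81 and 1.44 (adjusted p = 9.67e-06 and 0.000516). Ccl12 was at 95.4, 57.2, 95.8 and 79.5 CPM in day 35 WT and at 27.1, 18.5, 28.6 and 19 CPM in naive WT. In the other direction, Ccl9, a CCR1 ligand, was at 47.8, 39.7, 73 and 66 CPM in day 35 WT and at 96.4, 145, 119 and 116.5 CPM in naive WT, and fell by 1.07 on the log2 scale (SE 0.16, adjusted p = 0.000111). Ccl5, a chemokine of T cells and monocytes, showed 14.9, 15.8, 10.8 and 13.3 CPM in day 35 WT and 2.65, 4.22, 14.2 and 2.71 CPM in naive WT, where only naive WT 3 lay within the day 35 range. It did not pass (1.19, adjusted p = 0.0954) and passed without naive WT 3 (2.14, adjusted p = 0.00626).

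Of 22 cytokine and growth factor genes tested, 3 were called higher and none lower (median 0.13), beside 8.40% higher and 10.7% lower over all genes. Without naive WT 3, 5 were called higher and 1 lower. Il1a, an alarmin of the interleukin-1 family, was at 220, 172.5, 98.9 and 136.1 CPM in day 35 WT and at 102.2, 63.6, 72.5 and 89 CPM in naive WT, and rose by 0.94 (SE 0.21, adjusted p = 0.00323). Day 35 WT 3 lay just below naive WT 1. Tnf and Il18bp, the decoy of interleukin-18, rose by 0.87 and 1.15. Without day 35 WT 1 these were 0.79 (adjusted p = 0.0773) and 0.98 (adjusted p = 0.0540), and Tnf also missed the threshold without naive WT 2 (0.69) or naive WT 4 (0.78). Il1b was at 41, 40.8, 17.8 and 20.6 CPM in day 35 WT and at 48.2, 64.7, 88.8 and 72 CPM in naive WT, a log2 fold change of -1.19 that did not pass (adjusted p = 0.0999).

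Among 16 complement genes, C4b was the 1 called higher and 3 were called lower, beside 8.40% higher and 10.7% lower over all genes. C4b, complement component 4 (chr17:34728380-34743882), which has a near-identical neighboring copy in the mouse, was at 281, 201.3, 247 and 216 CPM in day 35 WT and at 13.5, 7.04, 89 and 7.27 CPM in naive WT. The naive libraries other than naive WT 3 were at 13.5 CPM or less. Its log2 fold change was 2.997 (SE 0.66, adjusted p = 0.0041), and 4.65 (adjusted p = 4.4e-05) without naive WT 3. C1qa, the first component of the classical pathway and a gene that microglia express at high levels, was at 1660 ± 468 CPM in day 35 WT and 1728 ± 60.2 CPM in naive WT (SD, n = 4 each, log2 fold change -0.06, adjusted p = 0.861). Cd55 and Cfp, called lower at -4.92 and -2.998, are known also in granulocytes. C5ar1, the receptor of the C5a fragment, was at 51.5, 36.7, 61.8 and 60.6 CPM in day 35 WT and at 71.6, 76.5, 98.1 and 97.8 CPM in naive WT (-0.71, adjusted p = 0.0127, and -0.57 with adjusted p = 0.0570 without day 35 WT 2). Of 19 phagocytic and scavenger receptor genes, 1 was called higher and 3 lower, and 2 of the 4 stayed called without each library in turn. Cd300a and Scarb1 lost their calls, which left 1 lower, without day 35 WT 1, day 35 WT 2, day 35 WT 4 or naive WT 4, and without naive WT 2, 2 were higher and 2 lower. Fcgr4, an activating Fc receptor, rose by 1.12, at 38.5, 32.7, 39.8 and 32.5 CPM in day 35 WT and at 10.3, 14.1, 28.4 and 13 CPM in naive WT (adjusted p = 0.00266). Timd4, a phosphatidylserine receptor of tissue macrophages, had no count in day 35 WT and 1.32, 1.41, 0.897 and 0.285 CPM in naive WT, at least 8.32-fold lower against a floor of 3 counts over the group.

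**Figure D3:**
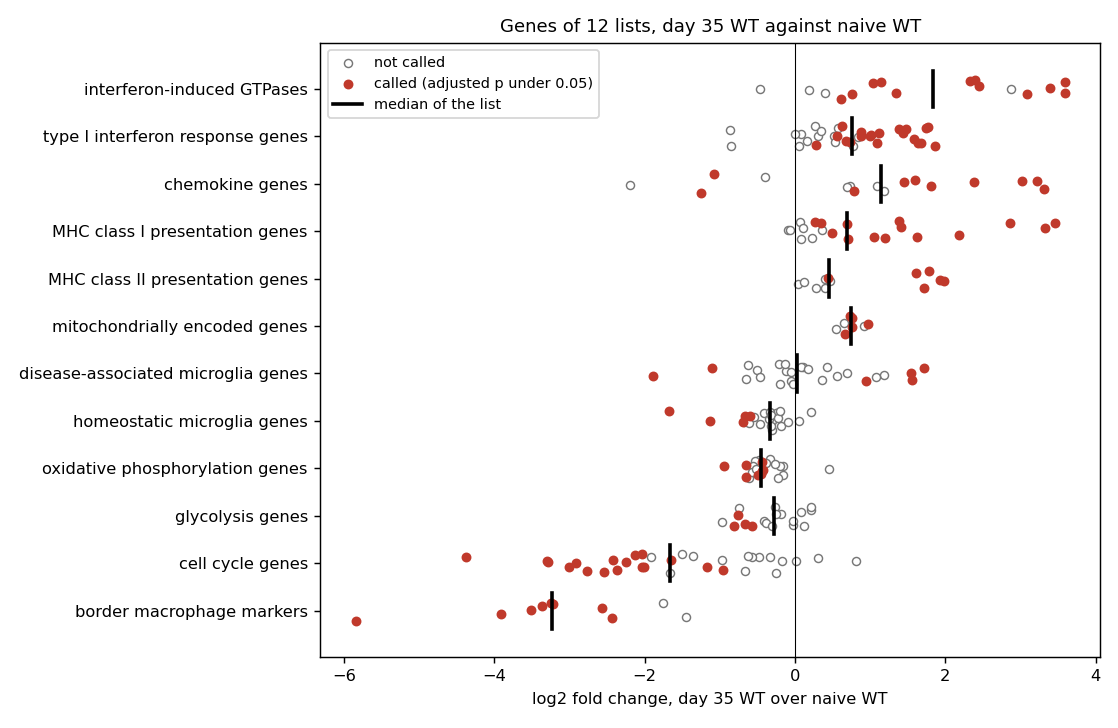
Log2 fold change of day 35 WT over naive WT for each tested gene of 12 lists (1 point per gene, called genes filled, list medians as bars). The interferon-induced GTPases have a median of 1.83 and the border macrophage markers one of -3.23, while the disease-associated list has both called rises and called falls around a median of 0.03.

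Of 24 homeostatic microglia genes tested, 5 were called lower and none higher (median -0.33), and 22 of the 24 had a negative log2 fold change. Fcrls, a microglia-restricted Fc receptor-like gene (chr3:87250758-87263738), was at 544, 616, 779 and 669 CPM in day 35 WT and at 1867, 1441, 927 and 1473 CPM in naive WT. The groups did not overlap, and it fell by 1.13 on the log2 scale (SE 0.18, adjusted p = 0.00019). Cx3cr1, the fractalkine receptor at whose locus the Cre of both groups sits (chr9:119901616-120069879), was at 651, 822, 1190 and 556 CPM in day 35 WT and at 3585, 2652, 948 and 3109 CPM in naive WT. Naive WT 3 lay inside the day 35 range. Cx3cr1 fell by 1.68 (SE 0.45, adjusted p = 0.0121). Both genes stayed called without each library in turn, while the calls of Sparc (-0.61), Rnase4 (-0.69) and Gpr34 (-0.66) did not: without naive WT 2 they were -0.45, -0.56 and -0.53, at adjusted p of 0.177, 0.146 and 0.161, and without day 35 WT 1 they were -0.51, -0.57 and -0.59. They were likewise lost without day 35 WT 2 (-0.58, -0.62 and -0.61) and naive WT 1 (-0.57, -0.71 and -0.64), Sparc and Gpr34 without day 35 WT 4 (-0.59 and -0.68), and Rnase4 and Gpr34 without naive WT 4 (-0.68 and -0.70). With upper-quartile scaling 2 were called lower. Without naive WT 3, 9 were called lower, the added ones being Cst3 (-0.79), P2ry12 (-0.74), Slc2a5 (-0.68) and Upk1b. P2ry12, the ADP receptor of ramified microglia, was at 1416, 1688, 2045 and 1937 CPM in day 35 WT and at 2946, 3205, 2033 and 2697 CPM in naive WT (-0.62, adjusted p = 0.0656 with all libraries). Tmem119, Sall1 and Csf1r, 3 genes that mark or maintain microglia, had log2 fold changes of -0.20, 0.05 and -0.21, at adjusted p of 0.609, 0.879 and 0.449.

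Disease-associated microglia genes were split, and 1 naive library set their count. Of 26 tested, 4 were called higher and 2 lower (median 0.03), beside 8.40% higher and 10.7% lower over all genes. Without naive WT 3, 9 were called higher and 1 lower (median 0.11). The lower count was also 1 without day 35 WT 1, 2 or 4 and without naive WT 2 or 4. Itgax, which encodes CD11c (chr7:128129547-128150657), was at 75.8, 79.3, 75.9 and 67.3 CPM in day 35 WT and at 17.5, 22.8, 42.9 and 18.4 CPM in naive WT, and rose by 1.55 (SE 0.34, adjusted p = 0.0035). Axl, a receptor of the TAM family for apoptotic cells, was at 217, 187, 245 and 236 CPM in day 35 WT and at 52.3, 56.3, 149 and 46.5 CPM in naive WT (1.54, adjusted p = 0.00689). Csf1, the growth factor of microglia, was at 113, 97.2, 85.9 and 104.2 CPM in day 35 WT and at 37, 40.1, 88.7 and 40.9 CPM in naive WT (0.95, adjusted p = 0.00648). In all 3, naive WT 3 was the highest naive library, and for Csf1 it lay above day 35 WT 3. Ch25h was also called higher, but its call was not kept. It was lost without day 35 WT 1 (1.82), day 35 WT 3 (1.52), day 35 WT 4 (1.60), naive WT 1 (1.49), naive WT 2 (1.49) or naive WT 4 (1.39).

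Apoe, Spp1, Gpnmb and Cst7 did not pass with all libraries and passed without naive WT 3. Apoe, the apolipoprotein that carries lipid between brain cells (chr7:19696109-19699188), was at 3782, 4245, 5377 and 7966 CPM in day 35 WT and at 2079, 1950, 8838 and 1630 CPM in naive WT. Naive WT 3 was above all day 35 libraries and the other 3 naive libraries were below them. The log2 fold change was 0.56 (adjusted p = 0.462) with all libraries and 1.502 (adjusted p = 0.0245) without naive WT 3. Spp1, which encodes osteopontin, was at 111.8, 153.7, 66.1 and 113 CPM in day 35 WT and at 8.67, 6.1, 185 and 8.7 CPM in naive WT. Its values were 1.08 (adjusted p = 0.361) and, without naive WT 3, 3.80 (adjusted p = 0.00128). Gpnmb, a transmembrane glycoprotein of lipid-laden macrophages, was at 37, 39.3, 18.5 and 30 CPM in day 35 WT and at 1.03, 0.704, 106 and 1.14 CPM in naive WT, with values of 0.17 (adjusted p = 0.924) and 4.95 (adjusted p = 0.00691). Cst7, an inhibitor of lysosomal cathepsins, was at 27.2, 22.4, 22.4 and 26.1 CPM in day 35 WT and at 4.56, 5.63, 27.2 and 4.99 CPM in naive WT, with values of 1.18 (adjusted p = 0.106) and 2.29 (adjusted p = 0.00375). The microglial lipid receptor Trem2 was at 693 ± 124.3 CPM in day 35 WT and 722 ± 88.3 CPM in naive WT (SD, n = 4 each, -0.06, adjusted p = 0.84). Ccl6, a chemokine of the same list, was at 51.5, 65.3, 83.8 and 80.5 CPM in day 35 WT and at 112.2, 173.3, 165.9 and 152.2 CPM in naive WT, and fell by 1.10 (adjusted p = 0.000191). Naive WT 3 also held the highest sum of neutrophil and of monocyte markers among the 8 libraries, given with those lists. The part of those cells in its levels was not tested.

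Markers of granulocytes fell. Neutrophil markers were the list with the lowest median: 13 of 14 were called lower and 1, Csf3r, higher, with a median of -8.48 (-8.32 with Elane, which had no count at day 35, at its bound), and all 14 stayed called without each library in turn. The sum of the list was 810, 656, 599 and 657 CPM in day 35 WT and 2021, 8049, 16917 and 9459 CPM in naive WT. Csf3r, the receptor of G-CSF, made up nearly all of the day 35 sum, at 771, 621, 594 and 639 CPM in day 35 WT and at 483, 402, 485 and 531 CPM in naive WT (0.47, adjusted p = 0.00587). S100a9, a subunit of calprotectin (chr3:90692632-90695721), was at 12.2, 8.67, 1.1 and 4.76 CPM in day 35 WT and at 372, 2545, 4919 and 2181 CPM in naive WT (-8.54, SE 1.56, adjusted p = 0.00109). Ltf, lactoferrin of the secondary granules, was at 6.29, 4.72, 0.626 and 3.18 CPM in day 35 WT and at 313.4, 1209, 2535 and 1630 CPM in naive WT. Ly6g, the surface protein that the sort gated out, was at 0.143, 0.152, 0 and 0 CPM in day 35 WT and at 3.23, 17.1, 29.3 and 22.7 CPM in naive WT (-7.61, adjusted p = 0.00185). Eosinophil granule genes fell as well. Epx, eosinophil peroxidase, had no count in day 35 WT and was at 8.67, 42.9, 64.3 and 47.9 CPM in naive WT, at least 365-fold lower against the floor of 3 counts. Prg2, major basic protein, had 2 counts in all in day 35 WT and 2563 in naive WT, a count ratio of 1390 (95% interval 385 to 11500, for counting error only). Elane, neutrophil elastase, had no count in day 35 WT and was at least 155-fold lower. In these sorted bulk samples, fewer cells of a type and less RNA per cell cannot be told apart.

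**Figure D4:**
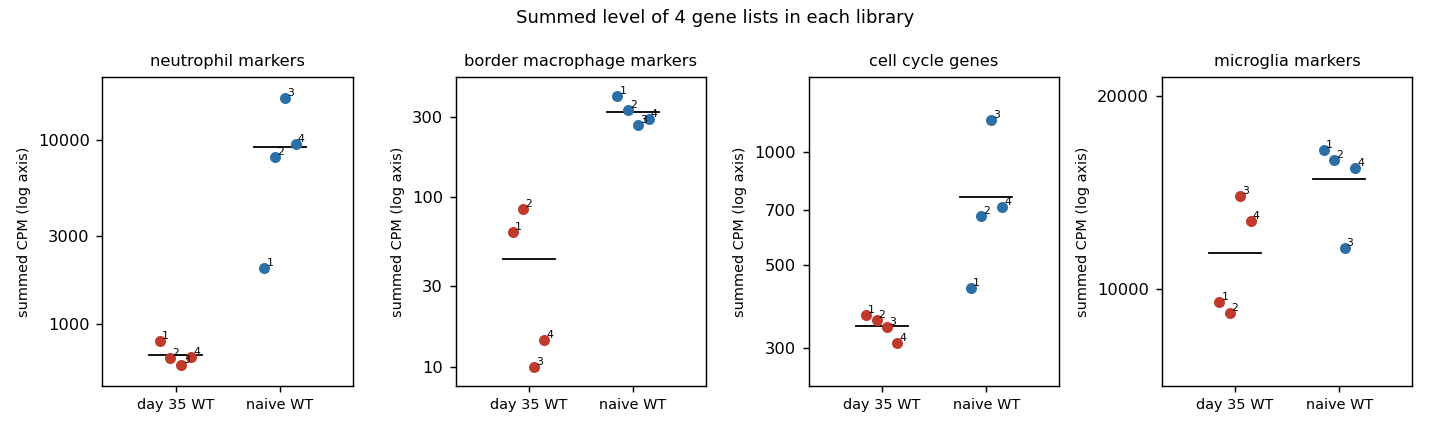
Summed level of 4 gene lists in each library (CPM, log axis), day 35 WT in red and naive WT in blue, numbered by library, with the group mean as a line. Neutrophil markers, border macrophage markers and cell cycle genes are lower in each day 35 library than in each naive library, and the sums of the microglia markers overlap between the groups.

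Markers of monocytes and of border macrophages, the macrophages of the meninges and vessels, were counted as well. Of 11 monocyte markers, 7 were called lower and none higher (median -3.99). Their sum was 240, 290, 99.7 and 165 CPM in day 35 WT and 152.2, 487, 1884 and 674 CPM in naive WT, and the groups overlapped. Hp, which encodes haptoglobin, fell by 6.20 on the log2 scale (adjusted p = 0.00404), at 1.86, 3.5, 0 and 0.577 CPM in day 35 WT and at 20.4, 85.4, 219 and 117 CPM in naive WT, while Fn1 and Ccr2 had log2 fold changes of -0.53 and -1.10 and did not pass. Without naive WT 3, 3 were called lower, and without day 35 WT 1, 2 or 4 in turn, 4 were. Of 10 border macrophage markers, 8 were called lower and none higher (median -3.23), and 6 stayed called without each library in turn. Their sum was 62.2, 86, 10 and 14.3 CPM in day 35 WT and 395, 329.3, 269 and 290 CPM in naive WT. Mrc1, the mannose receptor (chr2:14229392-14332057), was at 34.2, 45.5, 7.67 and 9.53 CPM in day 35 WT and at 223, 161, 67.2 and 122.2 CPM in naive WT, and fell by 2.56 (SE 0.61, adjusted p = 0.00654). Lyve1, a hyaluronan receptor, was at 0.429, 0.304, 0 and 0.289 CPM in day 35 WT and at 16.8, 21.1, 6.73 and 19.2 CPM in naive WT (-5.84, adjusted p = 8.94e-05). Exact permutation tests (two-sided) of the summed levels gave p = 0.0286 for the neutrophil and the border macrophage markers. The astrocyte markers, whose sum was higher at day 35, gave the same value. It is the smallest that 4 against 4 libraries allow, and it was 0.133 after adjustment over 28 such tests. The endothelial list was split: of 6 markers tested, 1 was called higher and 2 lower (median -0.51). Pecam1, an adhesion protein of endothelium that leukocytes also carry, was at 23.2, 19.2, 24.4 and 21.1 CPM in day 35 WT and at 54.8, 58.4, 43.4 and 46.8 CPM in naive WT (-1.21, SE 0.14, adjusted p = 3.63e-06). The member called higher was Ly6a, at 2.28 without naive WT 3 (adjusted p = 7.13e-05) and 1.73 without day 35 WT 3 (adjusted p = 0.0013).

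Markers of T and NK cells were near the floor. Of 5 T and NK cell markers tested, 1 was called higher and 2 lower, none of them in every leave-out. Cd3g, a subunit of the T cell receptor complex, was at 0.429, 1.83, 0 and 0.144 CPM in day 35 WT and had no count in naive WT. Its call was lost without day 35 WT 1 (adjusted p = 0.0718), day 35 WT 2 (adjusted p = 0.232), and naive WT 1, 2, 3 or 4 (adjusted p from 0.0801 to 0.0891). No B cell, erythroid, oligodendrocyte, astrocyte or neuron marker was called in either direction. Astrocyte markers summed to 235, 235, 402 and 323 CPM in day 35 WT and to 195, 234, 194 and 194 CPM in naive WT. The lowest day 35 sum, 234.66 CPM, was just above the highest naive sum, 233.85 CPM. Of the 10 astrocyte markers, 9 had a positive log2 fold change (median 1.01).

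Of 32 cell cycle genes tested, 17 were called lower and none higher (median -1.66), and their sum was 367, 356, 341 and 309.6 CPM in day 35 WT and 433, 673, 1213 and 714 CPM in naive WT. Mki67, which is expressed in dividing cells, was at 36.8, 41.1, 23.2 and 16.6 CPM in day 35 WT and at 53.2, 151.8, 407 and 190 CPM in naive WT (-2.77, adjusted p = 0.0155). The order of the naive libraries was that of their neutrophil marker sums. Only Ube2c, a ubiquitin carrier of mitosis, stayed called without each library in turn (-4.38, adjusted p = 0.00464). Without naive WT 3 the number called was 2, with Mki67 at -2.16 (adjusted p = 0.0562), without day 35 WT 1 or day 35 WT 2 it was 8, and without day 35 WT 4 it was 10. The part of other cells in this list was not tested.

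Of 22 nuclear genes of oxidative phosphorylation, 8 were called lower and none higher (median -0.45), and of 18 glycolysis genes, 4 were lower and none higher (median -0.29). Atp5b, a subunit of ATP synthase, was at 144.3, 127.2, 196 and 181 CPM in day 35 WT and at 227, 231, 228 and 230 CPM in naive WT (-0.50, SE 0.13, adjusted p = 0.00808), and was the 1 of the 8 that stayed called without each library. Without day 35 WT 1 or day 35 WT 2, 2 of the 22 were called. Aldoa and Hk1, glycolytic enzymes, fell by 0.67 and 0.76 (adjusted p = 0.00487 and 0.00707). The other 2 glycolysis calls, Ldha and Pkm, were lost without day 35 WT 2 (-0.47 and -0.71, adjusted p = 0.0624 and 0.103), and Pkm also without day 35 WT 1 (-0.82), naive WT 3 (-0.61) or naive WT 4 (-0.81). Hk1 was at 28.5, 36.7, 32.1 and 30.2 CPM in day 35 WT and at 49.3, 49.3, 60.1 and 56.3 CPM in naive WT. Of 8 mitochondrially encoded genes, 5 were called higher and none lower (median 0.74). mt-Nd6, a subunit of complex I on the light strand, was at 49.5, 59.2, 56.5 and 58 CPM in day 35 WT and at 22.2, 24.6, 44 and 22.4 CPM in naive WT (0.98, SE 0.22, adjusted p = 0.00432). The other 4 calls were not kept in every leave-out. The number called was 7 without naive WT 3, 1 without naive WT 1, naive WT 4 or day 35 WT 3, and 2 without naive WT 2 or day 35 WT 2. Mitochondrial counts were 4.48%, 4.97%, 6.08% and 5.79% of the library in day 35 WT and 2.14%, 3.39%, 6.73% and 2.47% in naive WT.

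Atg7 is wild type in both groups by their titles, with the label conflict of day 35 WT 3 given above. Atg7, the enzyme that starts conjugation of LC3 to membranes (chr6:114643097-114860614), was at 23.7, 21.3, 23.8 and 21.4 CPM in day 35 WT and at 26.6, 27, 40.1 and 32.8 CPM in naive WT. The groups did not overlap, but the difference did not pass (-0.49, SE 0.30, adjusted p = 0.259). Of 20 autophagy genes, 1 was called higher and 2 lower (median -0.21), and of 25 lysosome genes 2 and 1, beside 8.40% higher and 10.7% lower over all genes. The autophagy calls of Atg16l1 (0.40, adjusted p = 0.0824) and Atg3 (-0.63, adjusted p = 0.051) were lost without day 35 WT 1, and that of Atg3 also without naive WT 2 (-0.54). The lysosome genes called lower were 3 without day 35 WT 3. Gabarap, an LC3 relative, was at 64.6, 63.6, 79.8 and 75.8 CPM in day 35 WT and at 90.3, 98.7, 103.3 and 109.9 CPM in naive WT (-0.50, adjusted p = 0.00578). Of the lysosome genes, Ctsc and Mcoln1 were called higher (0.35 and 0.39) and Cd164 lower. Cd164, a sialomucin, was at 277, 304, 354 and 354 CPM in day 35 WT and at 662, 588, 399 and 612 CPM in naive WT (-0.81, SE 0.14, adjusted p = 0.000477). No sterol synthesis gene of 20 was called (median -0.40): 15 of the 20 had a negative log2 fold change, and Srebf2, which encodes the factor that switches the pathway on, was at 43.1 ± 5.85 CPM in day 35 WT and 50.9 ± 9.01 CPM in naive WT (SD, n = 4 each). Of 16 cholesterol export genes, Pltp, a phospholipid transfer protein, was called lower (-1.70, adjusted p = 0.0199), a call lost without naive WT 1 (-1.44), day 35 WT 1 (-1.67), day 35 WT 3 (-1.47) or day 35 WT 4 (-1.49).

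Of 18 genes of TGF-beta signaling and of transcription factors that shape microglia, 4 were called higher and 3 lower, and 4 of the 7 stayed called without each library in turn. The higher count was 2 without day 35 WT 1, day 35 WT 2 or naive WT 2, where Id2 and Smad7 lost their calls, and without naive WT 3, 3 were higher and 5 lower. Spi1, which encodes PU.1, was at 199, 195, 229 and 205.1 CPM in day 35 WT and at 273, 288, 273 and 290 CPM in naive WT, and fell by 0.44 (SE 0.09, adjusted p = 0.00166). Ets1, another ETS factor, fell by 0.53 (adjusted p = 0.000993), at 105, 105, 123 and 122.1 CPM in day 35 WT and at 177.3, 166.3, 145 and 167.8 CPM in naive WT. Runx1 rose by 0.42 (adjusted p = 0.00753), at 417, 354, 348 and 345 CPM in day 35 WT and at 309.8, 216, 290 and 281 CPM in naive WT. Irf8, a factor on which microglia depend, was at 576 ± 11.8 CPM in day 35 WT and 490 ± 40.8 CPM in naive WT (SD, n = 4 each, 0.23, adjusted p = 0.115). Of 27 genes of Toll-like receptors and NF-kappaB, 5 were called higher and 3 lower (median 0.14). Over all genes the shares were 8.40% higher and 10.7% lower. Of the 8 called, 2 stayed called without each library in turn. Without day 35 WT 1, 1 was higher and 2 were lower, as Irak1 (0.24), Nfkb2 (0.32), Relb (0.34), Tnfaip3 (0.45) and Myd88 (-0.32) lost their calls at adjusted p from 0.0775 to 0.175. The counts were 2 and 2 without naive WT 2, 3 and 3 without day 35 WT 2, 3 and 2 without naive WT 4, and 5 and 1 without day 35 WT 4. Tlr1 rose by 0.46 (adjusted p = 0.0119) and Ly96, the partner of TLR4, fell by 0.93 (adjusted p = 0.00281), at 5.72, 7.61, 10.2 and 7.79 CPM in day 35 WT and at 15.9, 14.8, 13.3 and 15.8 CPM in naive WT. Of 25 immediate-early genes, Socs3, Hspa1a and Hspa1b were called higher (median 0.47), and none of the 3 calls was kept in every leave-out, while 6 genes were called higher without naive WT 1. Without day 35 WT 1, which held the highest level of each, they were 0.68, 0.97 and 1.14 (adjusted p = 0.0734, 0.133 and 0.113). Hspa1a and Hspa1b, near-identical heat shock genes between which reads may be split, also lost their calls without day 35 WT 2 (1.18 and 1.24), naive WT 2 (0.99 and 1.12), naive WT 3 (1.03 and 1.11) or naive WT 4 (1.31 and 1.44).

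At day 21 of EAE the interferon, GTPase and MHC lists had higher medians against naive WT than at day 35. Day 21 WT (3 libraries, clinical scores 2, 3 and 3) shares the naive WT libraries with day 35 WT, so the values are given side by side. At day 21, 1320 genes (9.51%) were higher and 1669 (12%) lower than in naive WT. Of the GTPases 14 of 16 were called higher at day 21 (median 2.78), of the type I interferon genes 30 of 34 (median 1.67), of the MHC class I genes 16 of 21 (median 1.19) and of the MHC class II genes 8 of 12 (median 0.76). Homeostatic genes were lower in 13 of 24 (median -0.56), and disease-associated genes were higher in 8 and lower in 2 of 26. Cell cycle genes were called lower for 1 of 32 and higher for 1 at day 21 (median -0.71). Neutrophil markers at day 21 were called lower in 13 of 14 as well, with sums of 719, 725 and 700 CPM.

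**Figure D5:**
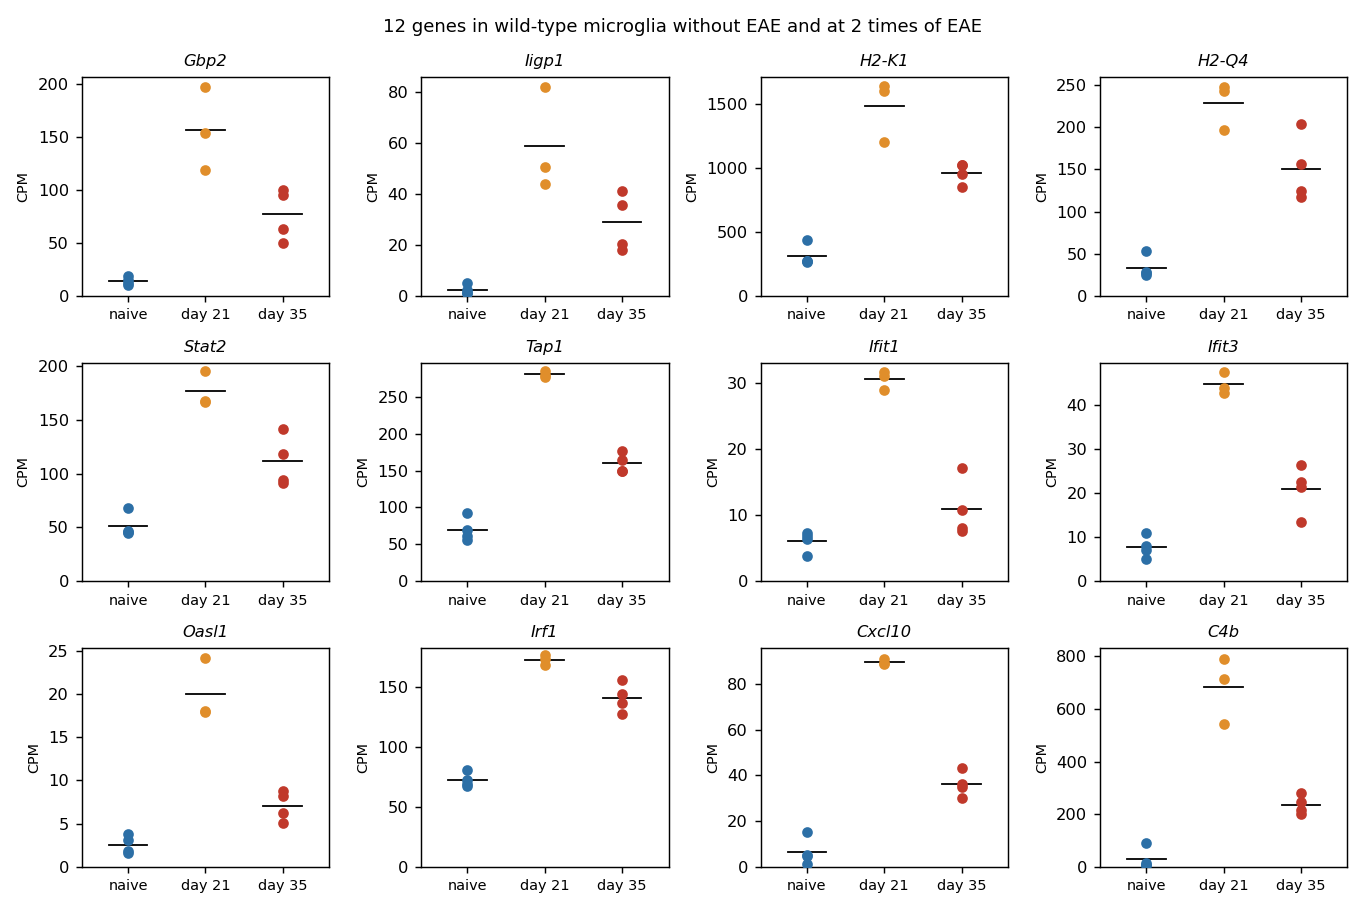
Levels (CPM) of 12 genes in each wild-type library without EAE (naive) and at day 21 and day 35 of EAE, with the group mean as a line. For each gene shown, the mean at day 35 lies between the naive mean and the day 21 mean, and Ifit1, Ifit3, Oasl1 and Tap1 are the genes shown for which day 35 differed from day 21 in the test across all genes.

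Tested directly, 9 of 13880 genes differed between day 35 WT and day 21 WT: 1 was called higher (0.00720%) and 8 lower (0.0576%) at day 35, and 935 had an unadjusted p under 0.05. The 8 were Oasl1, Ifit1, Oas1a, Ifit3, Dhx58, Tap1, Irgm1 and H2-T22, and 5 of them belong to the type I interferon list. Ifit1 was at 3.82, 6.33, 7.33 and 6.84 CPM in naive WT, at 31.7, 31 and 29 CPM in day 21 WT, and at 10.7, 7.61, 17.1 and 8.08 CPM in day 35 WT (day 35 against day 21 -1.49, SE 0.30, adjusted p = 0.0434). Ifit3 was at 5, 7.97, 10.9 and 6.99 CPM in naive WT, at 42.7, 47.4 and 43.9 CPM in day 21 WT, and at 22.5, 13.5, 26.5 and 21.4 CPM in day 35 WT (-1.09, SE 0.19, adjusted p = 0.0287). For both, no day 35 library reached a day 21 library. Oasl1, Oas1a and Dhx58, members of the oligoadenylate synthetase and RNA helicase families of antiviral sensors, had log2 differences of -1.51, -1.10 and -0.87 (adjusted p = 0.0434 each). The gene called higher was Gimap6, a GTPase known from lymphocyte survival, which was at 41, 42.2, 22 and 34.2 CPM in naive WT, at 10.4, 9.37 and 11.7 CPM in day 21 WT, and at 24.7, 22.8, 19.4 and 22.2 CPM in day 35 WT (1.08, SE 0.22, adjusted p = 0.0434). These calls were not kept: no gene was called without day 21 WT 1, day 21 WT 3, day 35 WT 2 or day 35 WT 4, 1 was called without day 21 WT 2 and 2 without day 35 WT 3. The clinical score was lower at day 35 than at day 21 (1.25 ± 0.289, n = 4, and 2.67 ± 0.577, n = 3, SD, two-sided exact permutation p = 0.0286 and 0.133 adjusted over 28 tests), and its part in these differences was not tested.

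The day 35 response of WT was also set against that of KO mice (Atg7fl/fl Cx3cr1CreERT, 4 libraries at day 35 and 4 naive) and of old mice (3 and 4). The difference of the responses passed for 51 genes (0.367%) between KO and WT and for 6 genes (0.0432%) between old and WT, with 2473 and 1630 at an unadjusted p under 0.05. Clinical scores at day 35 were 2.5 to 3 in KO and 2.75 to 3 in old libraries, against 1 to 1.5 in WT. Atg7, counted over the whole gene, was at 32.5 ± 1.54 CPM in day 35 KO and 20.2 ± 8.62 CPM in naive KO (SD, n = 4 each), which checks the knockout only where the deleted exon is counted. Cx3cr1 was among the 51: in KO it was at 953 ± 389 CPM at day 35 and 168.8 ± 82.2 CPM without EAE, against 805 ± 280 and 2574 ± 1149 CPM in WT (SD, n = 4 each), a log2 difference of responses of 4.17 (SE 0.64, adjusted p = 0.00597). It kept the call when each library of the 4 groups was left out in turn (3.87 to 4.57). None of the interferon, GTPase or MHC genes on the lists was called in either difference. A missed threshold does not show that the responses were alike. For the GTPase list the median log2 differences were -0.17 (KO minus WT) and -0.08 (old minus WT). In the same order they were 0.27 and -0.02 for the type I interferon list and -0.16 and -0.36 for MHC class I. For MHC class II they were -0.53 and -0.74. Of the 12 MHC class II genes, 10 and 11 had a negative difference, and of the 21 MHC class I genes, 14 and 19. The count for KO was 7 without naive WT 3 or naive KO 2, 9 without day 35 WT 1, 10 without day 35 WT 2, 18 without day 35 KO 4, 27 without naive KO 1, 33 without naive WT 2, day 35 KO 1 or day 35 KO 3, and 190 without naive WT 1. That for old mice was 3 without naive old 1 or naive old 2, 10 without naive WT 1, 21 without naive WT 3, 135 without day 35 old 2 and 347 without day 35 old 3.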

How the data were processed

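Total RNA of sorted mouse microglia was sequenced in 30 libraries. The authors deposited 1 table of raw counts per gene (46078 genes, 32 columns, of which 30 were used and 2 were not). Demultiplexing with CASAVA and bcl2fastq and alignment with STAR to GRCm38 are named in the submitters' processing notes. The counter, its annotation and its handling of strand were not given in the sources used here. Clinical EAE scores and RIN values are scores taken from the authors' deposited sample table. Columns were joined to samples through the plate well of that table, counting wells down the plate's columns, and every title number led to a column of the title's own group. Symbols came from GENCODE M21 (45229 genes), and promoters from RefSeq.

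Genes were filtered with edgeR's filterByExpr (minimum count 10, minimum total 15, 13880 genes kept), scaled by TMM, and tested in R 4.3.3 with edgeR 4.0.16 (quasi-likelihood F test, limma 3.58.1) in 1 model of all 30 libraries with 8 group means and 22 residual degrees of freedom. P-values were adjusted by Benjamini-Hochberg over all genes tested, and genes under 0.05 were called. CPM values are TMM-scaled. The code was tested on simulated data. Summed lists, clinical scores and other library measures were compared by exact permutation tests, two-sided. DESeq2 1.42.0, other scalings and filters, the i5 index as a block, the compared groups alone and leaving out each library were alternatives. Total counts limit the precision of low genes, and the floor of 3 counts and the 95% intervals cover counting error only.

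The members and gene lists were chosen with earlier results of these data known. Named by rule were the 12 highest and 12 lowest fold changes and the 8 lowest adjusted p among called genes with at least 5 CPM in the higher group and no overlap, up to 4 called members of each list (or the 2 most abundant where none was called), the 2 most abundant of each marker list, and the extremes of the other comparisons. Other list members are named as examples chosen after their values were seen, as are Tmem119, Trem2, Apoe, Spp1, Gpnmb and Cst7. A few genes that the rule names are not reported here.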

Additional observations from a re-analysis of the deposited data

Results flagged for a closer look

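Within groups of 4 libraries, 26 of 282 tests placed 1 library far from the other 3 (by Dixon's ratio at its 95% critical value). Its nominal rate of about 1 in 20 is for independent tests of genes not chosen by their values. Many genes tested here were named by these same values, so that rate does not apply. Naive WT 3 was the distant library in 14 of the 26. It was the highest naive WT library for H2-Q7 (15.3 CPM), Gbp4 (7.63 CPM), Nlrc5 (48.3 CPM), H2-Q4 (53.2 CPM), H2-K1 (438 CPM), Mx1 (16.3 CPM) and Stat2 (67.7 CPM), which are interferon or MHC class I genes. It was also the highest for C4b (89 CPM), Cxcl13 (2.54 CPM), Csf1 (88.7 CPM), Axl (149 CPM), Cd40 (1.94 CPM) and mt-Nd6 (44 CPM), and the lowest for Ighm (205.2 CPM). Among the other naive WT libraries, naive WT 1 stood apart for Cd83 (170 CPM) and Atp5a1 (234 CPM), and naive WT 2 for Slc11a1 (189 CPM) and the sum of astrocyte markers (233.8 CPM). Day 35 WT 1 stood apart for Ccl2 (49.6 CPM), Irak1 (135 CPM) and Runx1 (417 CPM). Day 35 WT 2 did so for Slc11a1 (255 CPM), Ldha (33.2 CPM), Chac1 (0.152 CPM) and Nkg7 (0.152 CPM), and day 35 WT 3 for Hbb-bt (5.01 CPM).

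Between day 35 WT and day 21 WT, the log2 difference was 1.08 for Gimap6, -1.51 for Oasl1, -1.49 for Ifit1, -1.10 for Oas1a, -1.09 for Ifit3 and -0.87 for Dhx58. The day 35 response differed between KO and WT mice by 8.99 for S100a8, 8.21 for S100a9, 7.598 for Apoc4, -1.16 for Ajm1, -0.997 for Ak1 and -0.98 for Pqlc2 on the log2 scale. Between old and WT mice it differed by 1.15 for Cry2, -3.64 for Lox, -1.59 for Naalad2 and -1.58 for Col6a3. S100a8 and S100a9 are neutrophil markers. The median difference of that list was 7.39 for KO minus WT and 7.68 for old minus WT, with 13 of 14 positive in each. Libraries within these groups varied widely. The list summed to 1225, 1164, 667 and 3862 CPM in day 35 KO and to 3094, 2959, 2806 and 644 CPM in naive KO. In old mice the sums were 32317, 2482 and 692 CPM at day 35 and 8056, 7797, 7527 and 14314 CPM without EAE. The part of neutrophils in these differences was not tested. The counts behind these comparisons changed with single libraries, as given beside them.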

How the results depend on the processing

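With upper-quartile scaling, higher calls for day 35 WT against naive WT outnumbered lower ones (1499 and 1182), and no gene named turned direction while called. List medians close to 0 changed sign under some settings, and that of the T and NK cell markers was 1.56 at a minimum count of 30, against -0.25. The count for day 35 WT against naive WT (2645) was 2670 with RLE scaling, 2681 with upper-quartile scaling, 2608 at a minimum count of 30, 2919 with DESeq2 and 1952 when only the compared groups were fitted, which lowered the higher calls to 758. With no filter on low counts the lower calls were 944. Leaving out 1 library each gave 1406 to 2857 calls (590 to 1323 higher, 816 to 1534 lower). The count for day 35 WT against day 21 WT (9) was 15 with upper-quartile scaling, 14 without a filter or at a minimum count of 30, 77 with DESeq2 and 93 with only the compared groups, and 0 to 13 with 1 library left out. The count for day 21 WT against naive WT (2989) was 1727 to 3002 with 1 library left out. The difference between KO and WT responses (51) was 121 at a minimum count of 30, 483 with DESeq2, 119 with only the compared groups and 7 to 190 with 1 library left out. That between old and WT (6) was 237 with DESeq2 and 3 to 347 with 1 library left out. The cause of these shifts was not tested. Of 130 genes named for day 35 WT against naive WT, 44 had called values that were lost in at least 1 alternative.

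The labels give the groups no shared replicate numbers. The i5 index was tried as a replicate block. Same-index libraries of day 35 WT and naive WT correlated at 0.0385, -0.0985, -0.173 and -0.0939 in their deviations from the group means. Between libraries of unlike index the mean was 0.0269. Whether libraries with the same index share an effect was not tested. With this block the counts were 2560 for day 35 WT against naive WT, 22 for day 35 WT against day 21 WT and 10 for old against WT.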

Other observations

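Day 35 WT libraries 1 and 2 differed from libraries 3 and 4 in several lists. The deposited column names of these libraries separate them in the same way, by the range of the last number. What these numbers stand for is not given in the sources used here, and their part in the differences was not tested. Summed GTPase levels were 809, 809, 633 and 588 CPM in day 35 WT 1 to 4. Mrc1 was at 34.2, 45.5, 7.67 and 9.53 CPM and Tmem119, a microglia surface protein, at 1205, 1094, 2118 and 1816 CPM in the same order. Neuron markers summed to 9.15, 8.06, 56.8 and 49.9 CPM in day 35 WT and to 16.2, 33.8, 17.6 and 13.5 CPM in naive WT. Xist and the sum of Y-linked genes were 59.0 and 190.7 CPM in day 35 WT 3, against 971 to 1827 CPM and 91.7 to 133 CPM in the other 3 day 35 WT libraries.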
